A study of Homo sapiens with 52 samples.

Results

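Macrophages were read out after a day with hepatoblastoma cells that had first been exposed to iMDK. Of the 52 RNA libraries of the series, 9 make up this experiment. THP-1, a human monocytic leukaemia line, was turned into macrophages with the phorbol ester PMA for 48 h and rested for 48 h in every group. Huh6, a hepatoblastoma line, received iMDK for 24 h and was then added directly to the macrophages for 24 h, after which THP-1 cells were sorted for poly(A) RNA. The treated side held 3 libraries from co-cultures with Huh6 given 5 µM iMDK and 3 from co-cultures with Huh6 given 10 µM. Their counterpart was 3 libraries from co-cultures with Huh6 that the labels call untreated. THP-1 alone (3 libraries), Huh6 alone with empty vehicle (3 libraries) and the matching 9 THP-1 libraries from HepG2 co-cultures, another hepatoblastoma line, served for comparison. Estimates of the tumour read share also used Huh6 alone at 5 µM and 10 µM iMDK, and HepG2 alone with vehicle or either dose (3 libraries each). All tumour cells cultured alone were treated for 48 h, unlike the 24 h before co-culture. The labels do not say whether replicates were separate cultures, so p-values measure only the spread between these libraries, which may be technical. The groups here were defined by the labels alone, with the iMDK doses pooled and the replicate number as a block.

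Midkine, encoded by MDK, is a secreted heparin-binding growth factor that is produced in fetal tissue and in many tumours, and iMDK is a small molecule that lowers its expression. LRP1, nucleolin (NCL), syndecans and integrins are among its reported receptors, and macrophages carry several of them. Macrophages answer their surroundings through scavenger receptors, complement, interferon-inducible GTPases and, under amino acid shortage or other stress, a programme led by the transcription factor ATF4.

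The 9 libraries held 12623973 to 16136076 counted reads, and those of THP-1 alone 15638236 to 16940245. Macrophage identity genes summed to 18310 to 21430 CPM (counts relative to library size, scaled by TMM) with iMDK-treated Huh6, 17430 to 20360 CPM with untreated Huh6 and 18270 to 20260 CPM in THP-1 alone. CD68 and CYBB were listed at 0 in all of these libraries, and FCGR1A was at 0 with untreated Huh6 and in THP-1 alone. Granule genes of myeloid progenitors summed to 229.7 to 272.9 CPM, 247.8 to 297.3 CPM and 193.5 to 240.7 CPM in the same 3 groups.

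Fewer tumour transcripts were counted in macrophages that had been with iMDK-treated Huh6. The tumour read share of a library is the median, over 24 hepatoblastoma markers, of the excess over THP-1 alone divided by the level in Huh6 cells of the same dose. It was 0.274%, 0.174% and 0.186% at 5 µM and 0.234%, 0.136% and 0.216% at 10 µM, against 1.90%, 0.588% and 0.366% with untreated Huh6. All 6 iMDK libraries lay below all 3 untreated ones, and the untreated libraries differed among themselves more than the iMDK libraries did. The mean was 0.203 ± 0.0485% (SD, n = 6) with iMDK-treated Huh6 and 0.951 ± 0.829% (n = 3) with untreated Huh6, a ratio of 0.214. An exact permutation test, two-sided, gave p = 0.0238, the smallest value it allows. That test shuffled libraries across replicate numbers and so left out the block. Within replicate numbers 1, 2 and 3 the ratio was 0.134, 0.264 and 0.549. Without the untreated library of replicate 1 it was 0.426. Fewer tumour cells left after the sort and less RNA per tumour cell cannot be told apart in such bulk libraries. Tumour read share moved with treatment, so genes with a higher mean CPM in vehicle-treated Huh6 than in THP-1 alone were kept apart as tumour-dominant, and the others are called macrophage-dominant.

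**Figure D1:**
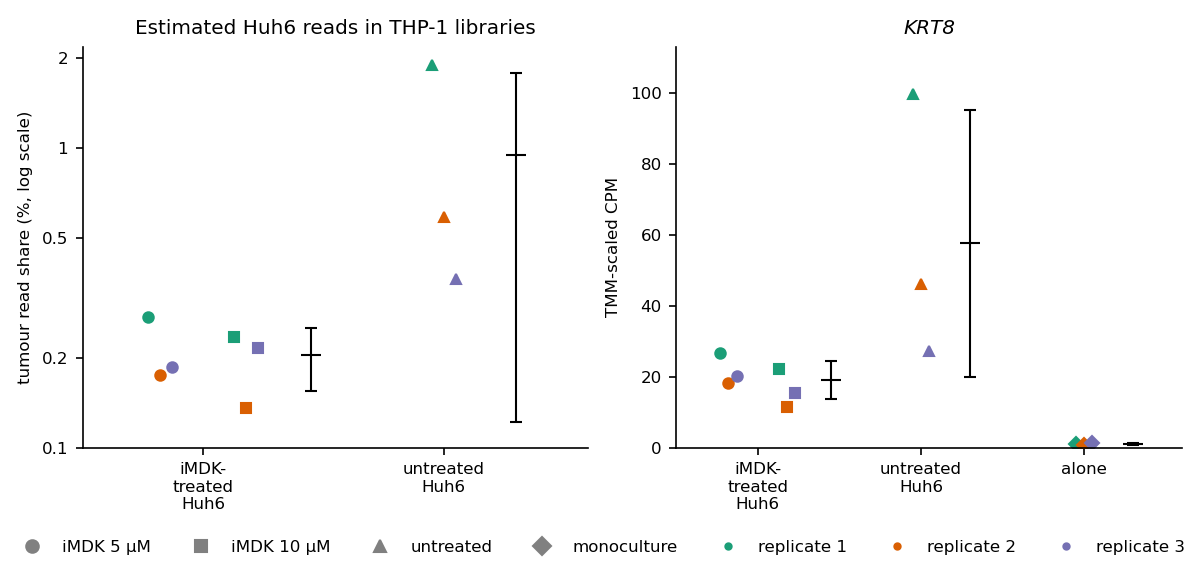
Estimated tumour read share (percent of a library, log axis, left) and KRT8 (TMM-scaled CPM, right) in each THP-1 library. Circles and squares are the iMDK doses, triangles the untreated co-cultures, diamonds THP-1 alone, colours the replicate numbers, and bars mean ± SD. All iMDK libraries lie below all untreated ones, and replicate 1 of the untreated co-cultures is the highest at 1.90%.

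Hepatoblastoma markers fell as a group. Of the 34 listed, 24 were tested, and of these 18 were lower and 0 higher with iMDK-treated Huh6. Their median log2 fold change was -1.69, against a median of -0.0011 and 0.877% lower among all 14373 genes tested. Some, such as PEG10 and TTR, passed the count filter only through the untreated libraries, so the count and the median lean towards a fall. The share estimate draws on the same list, though not on exactly the same 24 markers, so this count largely restates it. KRT8, an epithelial keratin, had 26.8, 18.4 and 20.3 CPM at 5 µM and 22.1, 11.5 and 15.5 CPM at 10 µM, against 99.6, 46.2 and 27.1 CPM with untreated Huh6, and between 0.898 and 1.46 CPM in THP-1 alone. Every iMDK library was below every untreated library and above THP-1 alone. APOB, the structural protein of liver lipoproteins, averaged 6.15 ± 2.11 CPM (n = 6) with iMDK-treated Huh6 and 38.4 ± 28.7 CPM (n = 3) with untreated Huh6, and was at 0 in THP-1 alone. Its log2 fold change was -2.55 ± 0.18 (SE, adjusted p = 2.29e-08, edgeR quasi-likelihood test with Benjamini-Hochberg adjustment). The plasma proteins TF (-2.36 ± 0.21) and APOA1 (-2.19 ± 0.20), the protease inhibitor SERPINA1 (-1.73 ± 0.17), the Wnt antagonist DKK1 (-3.02 ± 0.35), the adhesion protein EPCAM (-2.05 ± 0.26) and the growth factor IGF2 (-2.75 ± 0.45) fell likewise. GPC3, a glypican of hepatoblastoma that THP-1 alone also had at 53.3 ± 8.41 CPM, fell less, by 0.43 ± 0.09 on the log2 scale.

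Changes among macrophage-dominant genes were few and mostly small. This set need not hold all of the macrophages' own response. PSAT1, for example, had 373 CPM in THP-1 alone and is tumour-dominant because Huh6 with vehicle had 931 CPM. Of 8286 macrophage-dominant genes tested, 17 were higher and 27 lower with iMDK-treated Huh6 (0.531% called, 0.205% higher and 0.326% lower), and 1 of these 44 changed at least 2-fold. Of 6087 tumour-dominant genes, 14 were higher and 99 lower (1.86%), and 76 changed at least 2-fold. The 6 iMDK and 3 untreated values did not overlap for 21 of the 44 macrophage-dominant genes, whereas 1.66% of all tested genes were lower and 1.19% higher without overlap. The 44 were called on these same 9 libraries, so a raised share follows from that choice and is no separate evidence. These calls rest on the replicate block and on 1 library. Without the block, 0 macrophage-dominant genes passed (289 at an unadjusted p under 0.05) and 5 tumour-dominant genes did (APOA1, APOB, CLGN, SERPINA1 and TF). Without the untreated library of replicate 1, which had the highest tumour read share, 2 macrophage-dominant genes (CD163 and GBP2) and 11 tumour-dominant genes passed. Without a 5 µM or a 10 µM library of replicate 1, 11 and 17 macrophage-dominant genes passed, and without all 3 libraries of replicate 1, 0 (343 at an unadjusted p under 0.05).

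**Figure D2:**
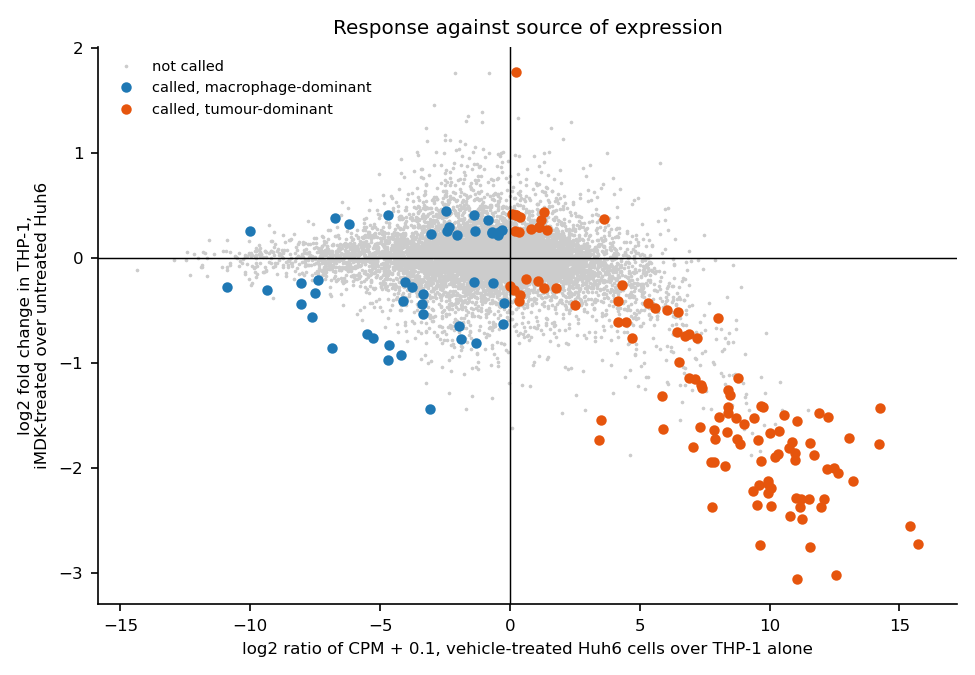
Each point is a gene tested. The horizontal axis is the log2 ratio of CPM + 0.1 in vehicle-treated Huh6 over THP-1 alone, the vertical axis the log2 fold change in THP-1 with iMDK-treated over untreated Huh6. Coloured points passed an adjusted p of 0.05. The calls left of 0, 44 macrophage-dominant genes, include 1 change of at least 2-fold, and most of the large decreases are at the right.

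Each dose on its own gave fewer calls than the pooled doses. At 5 µM, 2 macrophage-dominant genes were higher and 7 lower than with untreated Huh6 (0.109%), and at 10 µM 10 were higher and 21 lower (0.374%). Both doses share the 3 untreated libraries. Set directly against each other, 10 µM and 5 µM differed for 0 genes of either set, with 366 of 14373 at an unadjusted p under 0.05.

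Scavenger receptors and other surface proteins of macrophages were among the genes that fell. CD163, the haemoglobin-haptoglobin receptor (chr12:7470813-7503893, GRCh38), had 23.3, 14.4 and 17.7 CPM at 5 µM and 18.6, 11.3 and 13.5 CPM at 10 µM, against 28.2, 19.96 and 22.4 CPM with untreated Huh6. The groups overlapped, and within each replicate number both iMDK libraries were below the untreated one. Its log2 fold change was -0.53 ± 0.085 (adjusted p = 0.00123), with -0.36 at 5 µM and -0.71 at 10 µM. THP-1 alone had 23.4 ± 3.92 CPM. MARCO, a class A scavenger receptor (chr2:118942166-118994660), had 5.59, 7.63 and 5.36 CPM at 5 µM and 5.00, 5.32 and 4.63 CPM at 10 µM, against 9.45, 9.28 and 9.30 CPM with untreated Huh6. No iMDK library reached an untreated one, and MARCO fell by 0.76 ± 0.14 on the log2 scale (adjusted p = 0.00499). Of the 11 scavenger receptors tested, 3 were lower and 0 higher, against 0.877% lower among all genes tested, and their median log2 fold change was -0.08. The third, the collectin COLEC12, averaged 0.365 ± 0.194 CPM with iMDK-treated Huh6 and 1.82 ± 1.55 CPM with untreated Huh6, and is tumour-dominant. Its estimated tumour reads with untreated Huh6, 3.16 CPM, exceed that mean. COLEC12 also passed the count filter only through the untreated libraries, so its call is no evidence of a change in macrophages.

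SIGLEC1, a sialic acid-binding receptor of macrophages that interferon raises (chr20:3686970-3707128), had 39.2, 49.0 and 58.4 CPM at 5 µM and 44.2, 51.5 and 42.2 CPM at 10 µM, against 59.4, 62.5 and 70.9 CPM with untreated Huh6. The 6 iMDK values lay below the 3 untreated ones, at a log2 fold change of -0.44 ± 0.078 (adjusted p = 0.0037). Huh6 cells with vehicle had 0.0511 CPM of SIGLEC1, and the estimated tumour reads come to 0.000486 CPM with untreated Huh6.

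Interferon-inducible genes did not move as a group. Of 25 interferon-stimulated genes tested, 0 were higher and 0 lower, against 0.216% and 0.877% of all genes tested. At an unadjusted p under 0.05, 1 of the 25 was lower, and the median log2 fold change of the list was -0.0011. GBP1 and GBP2, guanylate-binding GTPases induced by interferon gamma, stood outside that list. GBP2 had 6.56, 7.40 and 8.37 CPM at 5 µM and 5.97, 7.73 and 8.13 CPM at 10 µM, against 9.51, 12.8 and 14.3 CPM with untreated Huh6. GBP2 did not overlap between the groups and fell by 0.72 ± 0.12 on the log2 scale (adjusted p = 0.00144). GBP1 averaged 4.64 ± 1.59 CPM with iMDK-treated Huh6 and 7.76 ± 1.39 CPM with untreated Huh6 and fell by 0.77 ± 0.18 (adjusted p = 0.0281, and 0.0582 after subtraction of the estimated tumour reads). GBP1 and GBP2 are neighbours of like sequence (chr1:89052319-89065360 and chr1:89106132-89150456), so reads may be split between them. IL18BP, the secreted decoy for interleukin 18, had 15.1, 24.0 and 27.3 CPM at 5 µM and 17.8, 25.97 and 18.1 CPM at 10 µM, against 30.8, 31.6 and 36.7 CPM with untreated Huh6. It fell by 0.65 ± 0.11 (adjusted p = 0.0023) with no overlap between the groups.

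LYZ, the secreted antibacterial lysozyme, had 117, 162 and 269 CPM at 5 µM and 125, 188 and 161 CPM at 10 µM, against 189, 229 and 336 CPM with untreated Huh6. The groups overlapped, replicate 3 was the highest in the 5 µM and the untreated co-cultures, and the log2 fold change was -0.56 ± 0.093 (adjusted p = 0.00191). LYZ was the 1 called member of 15 macrophage identity genes tested, whose median log2 fold change was -0.0024. C1QC, a chain of complement C1q, averaged 10.8 ± 5.94 CPM with iMDK-treated Huh6 and 19.1 ± 7.90 CPM with untreated Huh6, and fell by 0.86 ± 0.16 (adjusted p = 0.00769). C1QC was the 1 called member of 13 complement genes tested, where 0.877% of all genes were lower. PRTN3, the granule protease proteinase 3, fell by 0.83 ± 0.14 (adjusted p = 0.00289), the 1 called member of 8 myeloid progenitor granule genes. The median log2 fold change of these 8 was -0.41, against -0.0011 for all genes tested. Of the 8, 5 were lower at an unadjusted p under 0.05 and 2 had a positive fold change. CD74, the invariant chain of MHC class II, had 148, 184 and 195 CPM at 5 µM and 158, 175 and 162 CPM at 10 µM, against 181, 213 and 224 CPM with untreated Huh6. It fell by 0.27 ± 0.053 (adjusted p = 0.00855). CD74 is tumour-dominant by a narrow margin, with 160 CPM in Huh6 and 158 ± 8.49 CPM in THP-1 alone, and the estimated tumour reads add 0.191 CPM to it with iMDK-treated and 1.52 CPM with untreated Huh6.

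**Figure D3:**
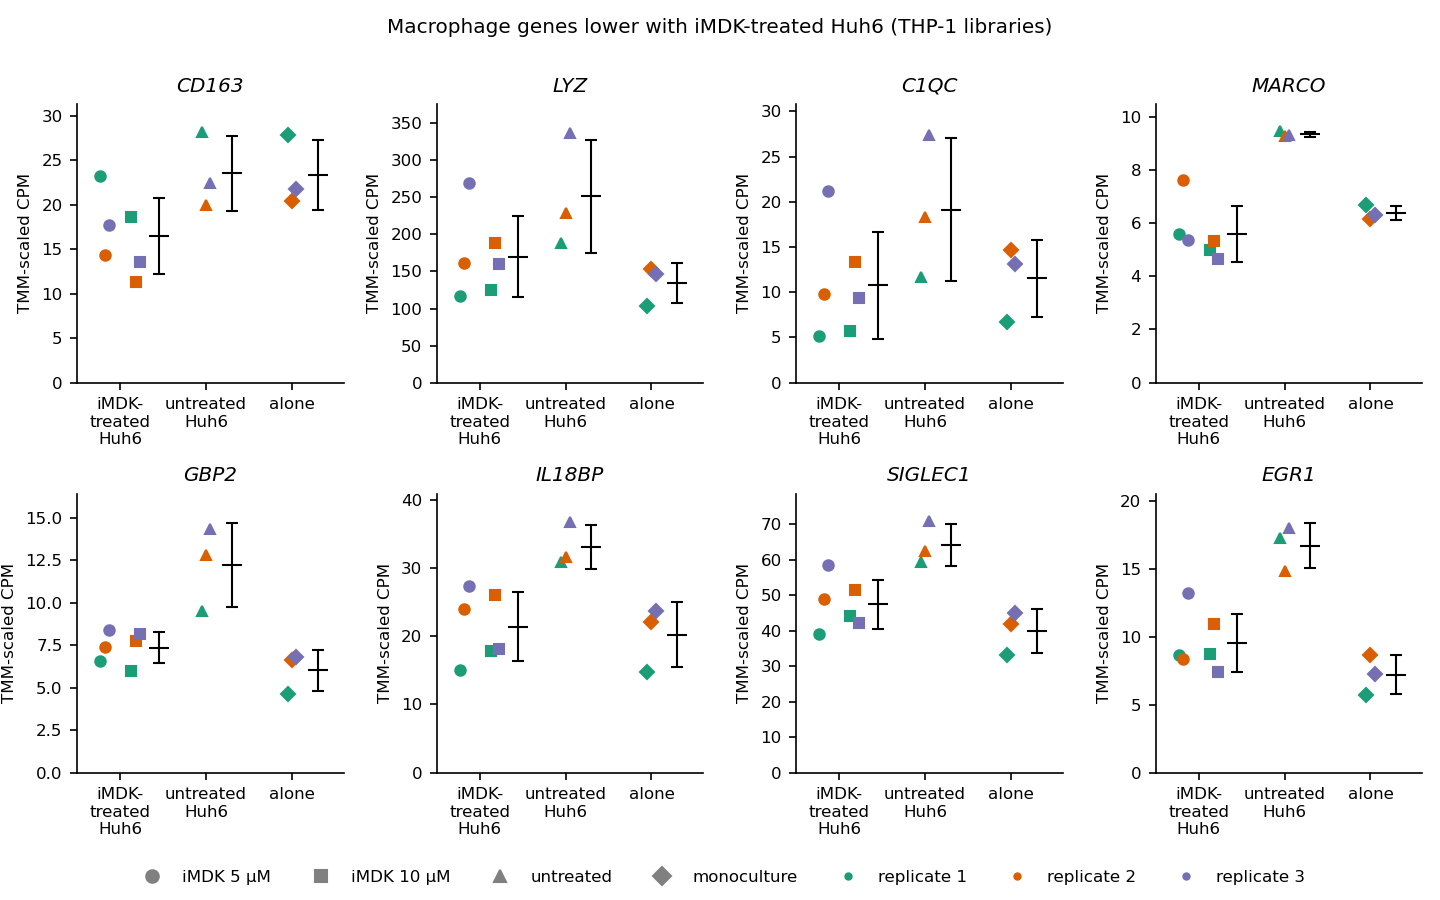
TMM-scaled CPM of 8 macrophage-dominant genes in each THP-1 library. Circles (5 µM) and squares (10 µM) are iMDK libraries, triangles untreated co-cultures, diamonds THP-1 alone, colours replicate numbers, bars mean ± SD. MARCO, GBP2, IL18BP, SIGLEC1 and EGR1 do not overlap between iMDK and untreated co-cultures, and CD163, LYZ and C1QC overlap.

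Signalling genes that respond within minutes to hours gave single calls. EGR1, an immediate early transcription factor, had 8.69, 8.35 and 13.3 CPM at 5 µM and 8.78, 10.97 and 7.44 CPM at 10 µM, against 17.3, 14.9 and 18.04 CPM with untreated Huh6. It fell by 0.81 ± 0.14 (adjusted p = 0.00256) with no overlap, and was the 1 called member of 16 immediate early genes, where 0.877% of all genes were lower. DUSP2, a phosphatase that turns off MAP kinases, averaged 30.6 ± 1.99 CPM with iMDK-treated Huh6 and 39.0 ± 3.71 CPM with untreated Huh6, and fell by 0.35 ± 0.076 (adjusted p = 0.0209). With untreated Huh6, EGR1 was higher than in THP-1 alone by 1.21 ± 0.16 (adjusted p = 0.00668) and DUSP2 by 0.60 ± 0.11 (adjusted p = 0.0269) on the log2 scale. That comparison shares the untreated libraries with the iMDK comparison.

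Annexins and S100 proteins, calcium-binding proteins of membranes and myeloid cells, were negative in 14 of 14 tested members, with a median log2 fold change of -0.14, against -0.0011 for all genes tested, and 4 were called lower, against 0.877% of all genes. ANXA1, the mediator of glucocorticoid action annexin A1, had 152, 143 and 161 CPM at 5 µM and 162, 145 and 141 CPM at 10 µM, against 200, 180 and 168 CPM with untreated Huh6. No value overlapped, and ANXA1 fell by 0.28 ± 0.053 (adjusted p = 0.00856). S100A8, a calprotectin subunit, fell by 0.27 ± 0.062 (adjusted p = 0.0255). The other two, ANXA6 and S100A10, are tumour-dominant, and the fold change of ANXA6 turned to 0.03 after subtraction of the estimated tumour reads. TPPP3, a tubulin-binding protein, averaged 17.9 ± 2.92 CPM with iMDK-treated Huh6 and 27.8 ± 7.21 CPM with untreated Huh6 and fell by 0.62 ± 0.095 (adjusted p = 0.000709). F3, tissue factor, fell by 0.43 ± 0.079, the LIM protein CRIP2 by 0.43 ± 0.079 and the glycolytic enzyme PFKP by 0.24 ± 0.054, each with no overlap. TGFBI, a secreted matrix protein and tumour-dominant, averaged 258 ± 23.4 CPM with iMDK-treated Huh6 and 330 ± 24.6 CPM with untreated Huh6, and fell by 0.36 ± 0.051 (adjusted p = 0.000439).

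Some genes of the ATF4 programme rose. Of 17 tested, 6 were higher and 0 lower, with a median log2 fold change of 0.22, against 0.216% higher among all genes tested. PSAT1, an enzyme of serine synthesis (chr9:78297143-78330093), had 298, 295 and 296 CPM at 5 µM and 313, 252 and 314 CPM at 10 µM, against 201, 240 and 213 CPM with untreated Huh6. All iMDK libraries exceeded all untreated ones, and PSAT1 rose by 0.44 ± 0.066 (adjusted p = 0.000673). PHGDH, which catalyses the first step of that pathway, had 519, 532 and 414 CPM at 5 µM and 524, 429 and 478 CPM at 10 µM, against 355, 418 and 315 CPM with untreated Huh6. 1 iMDK library, at 414 CPM, lay just under the highest untreated one, and PHGDH rose by 0.42 ± 0.069 (adjusted p = 0.00193). TRIB3, a pseudokinase that feeds back on ATF4, averaged 59.6 ± 9.70 CPM with iMDK-treated Huh6 and 44.8 ± 6.09 CPM with untreated Huh6, and rose by 0.41 ± 0.085 (adjusted p = 0.0133).

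The remaining called members, chosen here after their values were seen, were SLC7A5, a large neutral amino acid transporter (0.41 ± 0.08, adjusted p = 0.00858), VLDLR, a lipoprotein receptor (0.41 ± 0.088, adjusted p = 0.0177), and SESN2, a leucine sensor (0.25 ± 0.059, adjusted p = 0.0375). ATF4 itself averaged 380 ± 25.1 CPM with iMDK-treated Huh6 and 339 ± 36.6 CPM with untreated Huh6 (log2 fold change 0.17 ± 0.047, adjusted p = 0.0997). CHAC1 (0.22 ± 0.10), DDIT4 (0.17 ± 0.083), SLC3A2 (0.11 ± 0.048) and the CHOP gene DDIT3 (-0.32 ± 0.34) did not pass. Of the 17 members, 14 had a positive fold change. Besides DDIT3, the negative ones were ATF3 (-0.28 ± 0.069, adjusted p = 0.0512) and PPP1R15A (-0.07 ± 0.075), both macrophage-dominant. ATF3 thus went down and stood just short of the threshold. ASNS was listed at 0 in all libraries. PSAT1, PHGDH, TRIB3 and SLC7A5 are tumour-dominant. Their estimated tumour reads were higher with untreated Huh6: for PSAT1, 2.01 CPM with iMDK-treated and 8.85 CPM with untreated Huh6. After subtraction of the estimated tumour reads, VLDLR (adjusted p = 0.0555) and SESN2 (adjusted p = 0.0888) no longer passed. THP-1 alone had higher means than both co-cultures for these genes: PSAT1 373 ± 24.4 CPM, PHGDH 533 ± 25.9 CPM and TRIB3 90.2 ± 9.04 CPM. Untreated Huh6 against THP-1 alone gave 9 of 17 members lower and 0 higher, against 0.599% lower among all genes, a comparison that shares the untreated libraries.

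SLC6A12, a betaine and GABA transporter, had 23.3, 22.3 and 20.4 CPM at 5 µM and 28.2, 20.3 and 20.6 CPM at 10 µM, against 17.7, 16.3 and 15.4 CPM with untreated Huh6. It rose by 0.45 ± 0.091 (adjusted p = 0.0123) with no overlap. The collagen receptor OSCAR (0.25 ± 0.049), the phosphodiesterase PDE3B (0.26 ± 0.055), the acyl-CoA synthetases ACSL1 (0.24 ± 0.056) and ACSL3 (0.30 ± 0.058), the kinase MKNK2 (0.23 ± 0.05) and the tRNA exporter XPOT (0.28 ± 0.057) rose, each without overlap. ACSL1 (adjusted p = 0.0922) and MKNK2 (adjusted p = 0.07) no longer passed after subtraction of the estimated tumour reads. ACSL3 and XPOT, like SCD and CLGN below, are tumour-dominant. After the subtraction ACSL3 (adjusted p = 0.0218), XPOT (adjusted p = 0.0343) and SCD (adjusted p = 0.00694) still passed. SCD, the stearoyl-CoA desaturase, had 556, 189 and 194 CPM at 5 µM and 532, 169 and 210 CPM at 10 µM, against 348, 172 and 152 CPM with untreated Huh6. Replicate 1 was high in each group, and SCD rose by 0.37 ± 0.073 (adjusted p = 0.00889), the 1 called member of 22 cholesterol synthesis and SREBP target genes, where 0.216% of all genes were higher. CLGN, the chaperone calmegin, was chosen after its values were seen. It had 3.34, 4.77 and 3.53 CPM at 5 µM and 3.66, 3.44 and 3.44 CPM at 10 µM, against 1.48, 0.884 and 0.826 CPM with untreated Huh6, and rose by 1.77 ± 0.26 (adjusted p = 0.000618). THP-1 alone had 5.05 ± 0.517 CPM of CLGN and Huh6 with vehicle 5.97 CPM. The peptide hormone gene ADM2, chosen likewise, rose by 0.36 ± 0.08 (adjusted p = 0.0222, and 0.0571 after subtraction of the estimated tumour reads).

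**Figure D4:**
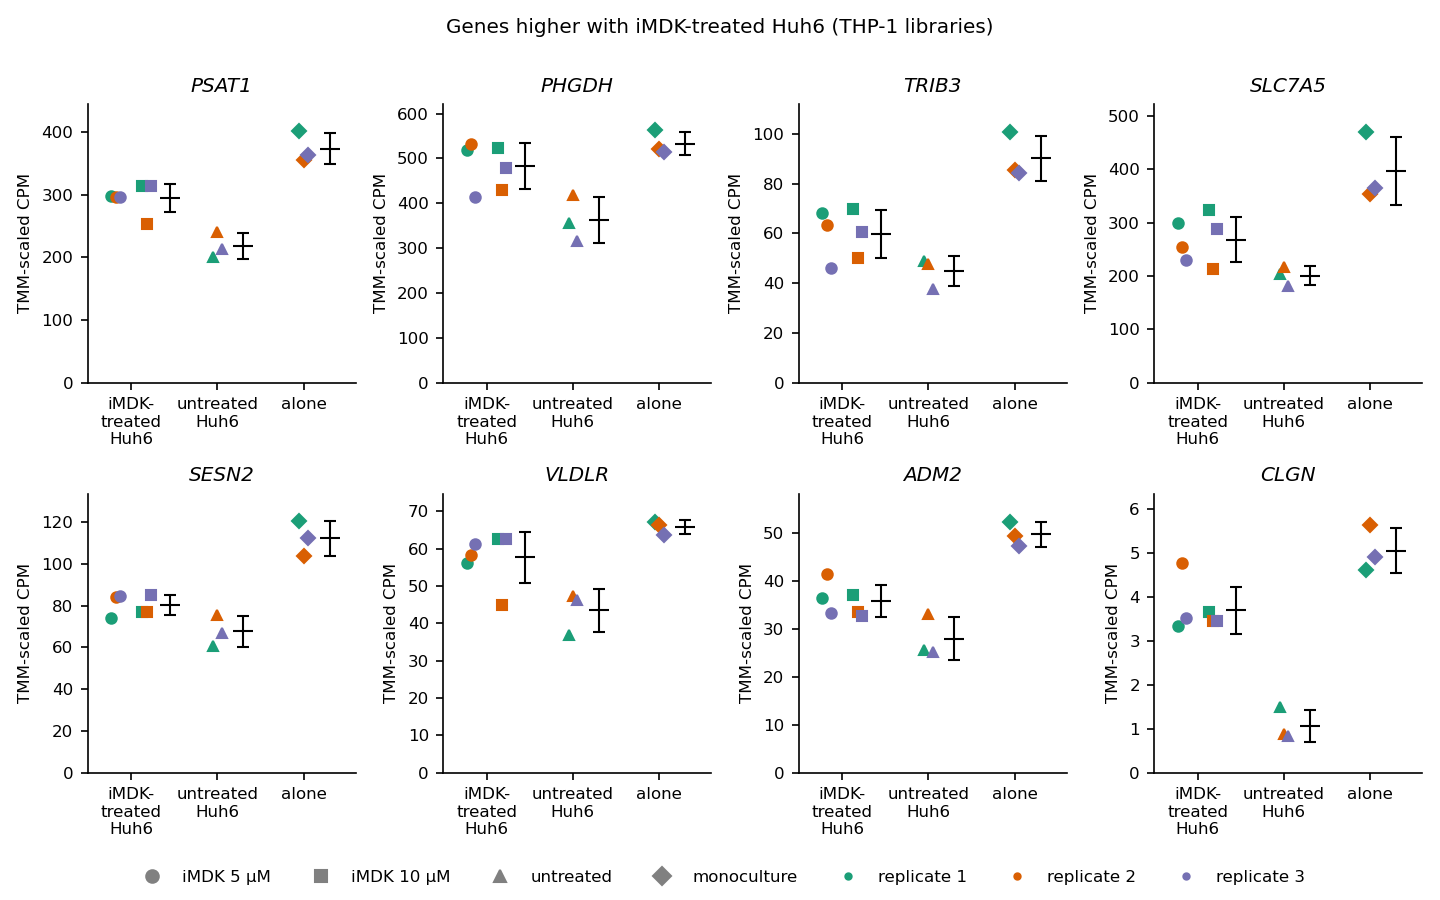
TMM-scaled CPM of 8 genes in each THP-1 library, with the marks as in the plot of the genes that fell. PSAT1 averages 295 CPM with iMDK-treated Huh6, 218 CPM with untreated Huh6 and 373 CPM in THP-1 alone.

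Several groups of interest held few or no called genes. MDK in the THP-1 libraries averaged 115 ± 13.5 CPM with iMDK-treated Huh6 and 126 ± 9.21 CPM with untreated Huh6 (log2 fold change -0.14 ± 0.053, adjusted p = 0.34), and THP-1 alone had 113 ± 11.7 CPM. Its receptor gene LRP1 averaged 1459 ± 98.3 CPM with iMDK-treated Huh6 and 1431 ± 16.6 CPM with untreated Huh6 (0.03 ± 0.05, adjusted p = 0.92). NCL (-0.04), SDC4 (0.04) and ITGA4 (-0.09) did not pass either, and 0 of 16 members of the midkine list were called. MDK, NCL and SDC4 are tumour-dominant. The estimated tumour reads of MDK were 0.694 CPM with iMDK-treated and 4.13 CPM with untreated Huh6. Among inflammatory cytokines 0 of 12 were called. Of all genes tested, 0.216% were higher and 0.877% lower, so 0 calls in lists this short do not set them apart. IL1B averaged 23.9 ± 14.3 CPM with iMDK-treated Huh6 and 17.8 ± 7.82 CPM with untreated Huh6 (0.36 ± 0.15, adjusted p = 0.421), and TNF averaged 4.70 ± 2.62 CPM with iMDK-treated Huh6 and 4.05 ± 2.45 CPM with untreated Huh6 (0.20 ± 0.19). CD86, a costimulatory ligand, differed by 0.01 ± 0.052 and the lipid-associated gene GPNMB by -0.08 ± 0.08. MRC1, CD274 and HLA-DRA had too few counts to be tested. Of 19 hypoxia and glycolysis genes, 2 were lower (0.877% of all genes), the glucose transporters SLC2A1 (-0.29 ± 0.061, adjusted p = 0.0165) and SLC2A3 (-0.57 ± 0.081, adjusted p = 0.000332). Both are tumour-dominant. For SLC2A3 the estimated tumour reads, 72.7 CPM, exceed the observed mean of 48.9 CPM with untreated Huh6, so its value after subtraction is no measure of a change. All 27 cell cycle genes tested, each tumour-dominant, had a negative fold change with a median of -0.14, and 0 were called (9 at an unadjusted p under 0.05). The NRF2 targets HMOX1 (-0.01) and TXNRD1 (-0.02), both tumour-dominant, and NQO1 (0.01) did not pass, nor did the aryl hydrocarbon receptor target CYP1B1 (0.10). CYP1A1, another such target and tumour-dominant, averaged 0.276 ± 0.155 CPM with iMDK-treated Huh6 and 1.43 ± 0.824 CPM with untreated Huh6, and fell by 2.37 ± 0.48 (adjusted p = 0.0107). CYP1A1 passed the count filter only through the untreated libraries.

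The same treatment of HepG2 gave a like response in some genes and another in others. Among genes that fell with Huh6, EGR1 (-0.75), TPPP3 (-0.65), CRIP2 (-0.59), GBP2 (-0.48), IL18BP (-0.45), MARCO (-0.42), PFKP (-0.37) and ANXA1 (-0.31) also fell and passed with HepG2. CD163 (0.03), LYZ (0.09), C1QC (0.08), F3 (0.0004), DUSP2 (-0.12) and PRTN3 (-0.26) did not pass there, and SIGLEC1 and GBP1 rose. The difference between lines was tested over 18 libraries and 15364 genes, of which 59 macrophage-dominant genes were more positive and 60 more negative with Huh6 (0.681% and 0.692%). Without the block 1 macrophage-dominant gene passed, SIGLEC1. SIGLEC1 had 138, 108 and 121 CPM at 5 µM and 136, 102 and 98.5 CPM at 10 µM with iMDK-treated HepG2, against 57.8, 62.2 and 71.7 CPM with untreated HepG2. It was thus higher with iMDK-treated HepG2 and lower with iMDK-treated Huh6, while the untreated Huh6 co-cultures ranged from 59.4 to 70.9 CPM. The log2 fold change was 0.85 ± 0.099 with HepG2, and the difference, Huh6 minus HepG2, was -1.28 ± 0.14 (adjusted p = 5.19e-05). That difference stayed past the threshold in all 18 fits that left out a library, between -1.43 and -1.12.

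GBP1 (-1.49 ± 0.26, adjusted p = 0.00667) and the interferon-induced IFI44 (-1.16 ± 0.25, adjusted p = 0.0193) also had more negative responses with Huh6. BMP2, a morphogen of the TGF-beta family, and the matrix protein OLFML2B did as well, by -0.99 ± 0.17 and -1.05 ± 0.20. Of 28 interferon-stimulated genes tested with HepG2, 12 were higher, against 3.74% of all genes, and 1 was lower, and 1 differed between the lines. TRIB3 differed by 0.74 ± 0.13 (adjusted p = 0.00677), rising with Huh6 and falling by 0.32 ± 0.089 with HepG2. Complement C3 (1.23 ± 0.13), the hormone hepcidin HAMP (1.68 ± 0.33) and the creatine transporter SLC6A8 (0.93 ± 0.17) were more positive with Huh6. HepG2 cells express these at 4452, 64.1 and 159 CPM, and the tumour read share of HepG2 co-cultures was 1.44% to 5.15% with iMDK and 5.20% to 7.30% without. The part of tumour reads in these differences was not tested.

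**Figure D5:**
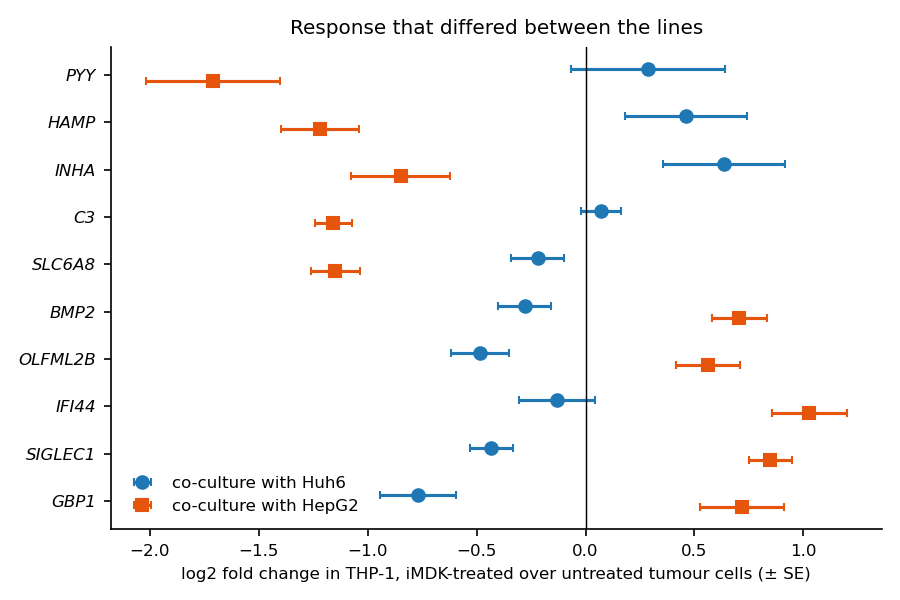
Log2 fold change ± SE in THP-1 with iMDK-treated over untreated tumour cells, for Huh6 (circles) and HepG2 (squares), of 10 macrophage-dominant genes, those with the 5 highest and the 5 lowest differences among the genes whose difference between lines passed and that the naming rule allows. SIGLEC1 and GBP1 lie left of 0 with Huh6 and right of 0 with HepG2. Macrophage-dominant refers to levels in Huh6 only, and C3, HAMP and SLC6A8 are higher in HepG2 than in THP-1 alone.

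Promoters of the genes that passed were searched for a motif of interferon response and one of amino acid response. The RefSeq table (GRCh38.p14, 250 bases before to 50 after the start of a gene) held 25 of the 31 genes that rose and 16 of the 27 macrophage-dominant genes that fell. The core of the interferon-stimulated response element, GAAA repeated after a gap of any 2 bases, on either strand, occurred in 3.65% of 27305 promoters, in 2.81% of those of the genes tested and in 2 of the 16, CD163 and GBP1. The amino acid response motif TGATGNAA on either strand occurred in 3.67% of promoters, in 1.96% of those of the genes tested, in 1 of the 16 (GBP1) and in 1 of the 25 (BCAT1, a branched-chain aminotransferase, 0.27 ± 0.061) and in 0 of the 6 ATF4 programme genes that rose. The promoters with a match in the genes that carry these results are given 5′ to 3′ on the strand of the gene, the motif in capitals, for CD163 at chr12:7503728-7504027, GBP1 at chr1:89065159-89065458 and BCAT1 at chr12:24949052-24949351, all on the minus strand.
CD163: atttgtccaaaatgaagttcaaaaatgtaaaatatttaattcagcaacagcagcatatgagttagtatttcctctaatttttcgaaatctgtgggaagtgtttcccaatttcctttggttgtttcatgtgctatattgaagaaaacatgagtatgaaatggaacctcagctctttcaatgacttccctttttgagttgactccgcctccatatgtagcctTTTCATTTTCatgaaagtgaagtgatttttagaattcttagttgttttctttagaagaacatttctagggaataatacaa
GBP1: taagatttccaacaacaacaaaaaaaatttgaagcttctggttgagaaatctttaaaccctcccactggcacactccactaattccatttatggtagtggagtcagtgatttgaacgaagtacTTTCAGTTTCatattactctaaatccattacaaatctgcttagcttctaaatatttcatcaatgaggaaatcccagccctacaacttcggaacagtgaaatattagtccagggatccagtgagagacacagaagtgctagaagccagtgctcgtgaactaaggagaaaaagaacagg
BCAT1: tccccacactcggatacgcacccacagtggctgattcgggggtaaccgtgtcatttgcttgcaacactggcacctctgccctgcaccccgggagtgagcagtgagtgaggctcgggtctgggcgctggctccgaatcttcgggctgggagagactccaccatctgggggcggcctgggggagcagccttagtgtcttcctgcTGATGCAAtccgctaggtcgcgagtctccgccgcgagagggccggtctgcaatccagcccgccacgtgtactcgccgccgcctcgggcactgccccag
In CD163 and GBP1 the capitals mark the interferon motif, on the opposite strand, and the amino acid response match of GBP1 is left in lower case. A match is a description of the letters in this window only.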

How the data were processed

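Poly(A) RNA was sequenced with a directional library kit, per the labels' protocols. Raw read counts per gene were deposited by the authors in a table for THP-1 (61209 symbols) and one for tumour cells (62696 rows). Per the submitters' processing notes, STAR 2.7.3a, SAMtools 1.16.1 and featureCounts were used on GRCh38, with edgeR 3.36. Annotation release and strandedness of the counting: not given in the sources used here.

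Genes that filterByExpr kept were scaled by TMM, and edgeR 4.0.16 (in R 4.3.3, with limma 3.58.1) fitted 3 group means and the replicate number to 9 libraries. The quasi-likelihood F test, two-sided, compared the mean of the 5 µM and 10 µM groups with the untreated group. Benjamini-Hochberg adjustment ran over all 14373 genes tested, and 0.05 was the threshold. The SE of a fold change is its size divided by the square root of F. CPM are TMM-scaled over the 21 THP-1 libraries. The difference between lines was fitted on 18 libraries with the replicate number within a line as block. THP-1 alone and untreated co-cultures were compared on 6 libraries without a block. Subtraction of tumour reads removed the tumour read share times the CPM of the matching Huh6 group. Markers for that share had at least 100 CPM in Huh6. The THP-1 and tumour tables hold different libraries, and the split into macrophage-dominant and tumour-dominant genes used CPM without TMM. Where tumour cell levels or estimated tumour reads are printed beside THP-1 means, only the THP-1 means are TMM-scaled. No pair of libraries in a group agreed within sampling noise. The fits were tested on simulated data.

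Genes named passed the threshold at a mean log2 CPM of at least 2 without overlap between groups (up to 12 per direction among macrophage-dominant and 6 among tumour-dominant genes), were up to 3 called members of each of 38 gene lists, were among 5 per direction in the difference between lines, or belonged to a fixed set. Those described as chosen after their values were seen, and CHAC1, DDIT4, SLC3A2, DDIT3, ATF4, ASNS, S100A8, BCAT1, KRT8 and GPC3, fall outside that rule. ATF3 and PPP1R15A do so as well. Some genes of these lists are not reported here. The members and lists were chosen with earlier results of these data known. Alternatives were DESeq2 1.42.0, other scaling and filters, other groupings and leaving out libraries. Gene positions are from GENCODE 29 on GRCh38.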

Additional observations from a re-analysis of the deposited data

Results flagged for a closer look

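In 3 genes 1 of the 6 iMDK libraries stood apart from the other 5, by a gap that was a larger share of the whole range than the 95% critical value for 6 samples. The share was 0.627 for PDE3B, with 143 CPM in replicate 2 at 10 µM as the highest value. It was 0.681 for MARCO, with 7.63 CPM in replicate 2 at 5 µM as the highest value. It was 0.698 for PSAT1, with 252 CPM in replicate 2 at 10 µM as the lowest value. Chance alone marks about 1 in 20 such groups. The number of genes looked at is not given here, so these 3 cannot be set against that rate.

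The iMDK response differed between Huh6 and HepG2 co-cultures, by a test of the difference itself, in the 10 genes named for it. Huh6 minus HepG2, the log2 difference was 1.999 for PYY, 1.68 for HAMP, 1.48 for INHA, 1.23 for C3 and 0.928 for SLC6A8. It was -0.986 for BMP2, -1.05 for OLFML2B, -1.16 for IFI44, -1.28 for SIGLEC1 and -1.49 for GBP1. With each of 18 libraries left out in turn, SIGLEC1, C3, BMP2 and GBP1 passed in all 18 fits, SLC6A8 and OLFML2B in 17, HAMP and IFI44 in 15, PYY in 5 and INHA in 3. Without the block SIGLEC1 alone of these 10 passed (adjusted p = 0.00493).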

How the results depend on the processing

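The replicate numbers were not shown to pair the libraries: 5 of 9 same-number pairs correlated above 0.1 (range 0.0193 to 0.382, median of different-number pairs -0.116), and 7 of 9 libraries correlated best with their own number. With no replicate block the pooled comparison called 0 macrophage-dominant and 5 tumour-dominant genes, each dose 0 and 0, and the difference between lines 1 and 4, against 44 and 113, 9 and 47 (5 µM), 31 and 82 (10 µM), and 119 and 104 with the block. The pooled comparison called 135 and 216 genes with no filter on low counts, 22 macrophage-dominant genes with all 21 libraries in the fit and 68 with iMDK as 1 group. After subtraction of the estimated tumour reads it called 28 and 34, with 0 and 8 at 5 µM and 18 and 22 at 10 µM; 28 of the 44 macrophage-dominant genes remained called and 0 reversed, while the tumour-dominant SLC2A3 (3.63, adjusted p = 0.00151) and ANXA6 (0.031, adjusted p = 0.964) changed sign, SLC2A3 by a subtraction larger than its level with untreated Huh6 (72.7 against 48.9 CPM), which makes that value void. Keeping genes apart already above 0.1 of the monoculture level left 24 of the 44. The causes of these changes were not tested. Leaving out 1 library or 1 replicate number gave 0 to 126 macrophage-dominant and 10 to 178 tumour-dominant calls for the pooled doses (lowest without replicate 1), 0 to 37 and 2 to 81 at 5 µM, 1 to 100 and 11 to 131 at 10 µM, and 12 to 307 and 15 to 204 for the difference between lines. The pooled macrophage-dominant count moved by over 1.5 times without replicates 1, 2 (26) or 3 (82) at 5 µM, replicates 1, 2 (126) or 3 (77) at 10 µM, and untreated replicates 1 or 3 (24). The ratio of tumour read shares ranged from 0.163 to 0.426. Without an untreated library the exact permutation p, taken without the block, was 0.0714, the smallest value then possible. DESeq2 size factors, DESeq2's Wald test (39 and 85) and a minimum of 1 CPM changed no count they were run on by over 1.5 times. At this depth a gene at 3 counts has 0.186 to 0.238 CPM.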
